A study of Ambystoma mexicanum with 198 samples.

Results

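The solute carriers are the gene superfamily whose symbols begin with SLC, and 186 of the 8639 gene symbols on the axolotl (*Ambystoma mexicanum*) array carried that prefix followed by a number. The 10 SLC2A symbols and *slc7a3* were left out, so 175 genes are described here, measured by 200 probes. For the 21 genes with more than 1 probe, the probe with the highest mean over all arrays stood for the gene. They were sorted by family number into 34 carriers of amino acids and peptides, 50 of ions and metals, 29 mitochondrial carriers and 60 of other solutes (sugars, monocarboxylates, nucleosides, nucleotide sugars, lipids and organic ions). The 2 remaining symbols, *slc4a1ap* and *slc7a6os*, name proteins that are not transporters, and neither was called in any comparison.

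Forelimbs of juvenile axolotls were cut through the middle of the zeugopod, the lower arm, and the distal 1.0 mm of tissue was taken for RNA at 20 times, at the moment of the cut (0 days post amputation, DPA) and at 19 later times up to 28 DPA. Each time had 10 arrays, except 16 and 28 DPA with 9. All animals were of 1 species and received no agent other than the benzocaine used for anaesthesia. The question behind the comparisons was when transcript abundance leaves the day 0 level and at which intervals it shifts most.

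The sample codes split the replicates into a set numbered 1 to 5 and a set numbered 6 to 10, and within each set the code letters change between times. Comparisons of 0.5 to 2 DPA with 0 DPA stay within 1 letter series in both sets, and 20 to 28 DPA against 0 DPA do so in replicates 1 to 5. Comparisons of 3 to 18 DPA with 0 DPA cross letter series in both sets, so there the series and the time cannot be told apart. Adjacent times cross series in both sets from 2 to 3 and from 18 to 20 DPA. From 9 to 10 DPA they do so in 1 set. The sources used here do not explain the letters. Pairs of arrays from 1 time point correlated at 0.962 or more over all probes. The tip holds many cell types, and in such bulk tissue fewer cells of a type and less RNA per cell cannot be told apart.

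Solute carriers are membrane proteins that move small molecules down a gradient or by coupling to sodium, protons or an exchanged solute. Those at the cell surface admit amino acids, metals, phosphate, sulfate, lactate and nucleosides, those of the SLC25 family connect the mitochondrial matrix with the cytosol, and those of the SLC35 family bring nucleotide sugars into the Golgi and endoplasmic reticulum for making glycoproteins and proteoglycans. In a regenerating limb, cell types are lost and gained at the stump, and carriers typical of a cell type can move along with it in bulk RNA.

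A gene was called when its adjusted p was under 0.05 over 20035 probes (limma, Benjamini-Hochberg) and its mean differed from the earlier time by at least 0.58 on the log2 scale, which is 1.5-fold. Of the 175 genes, 63 were called at 1 or more of the 19 times against 0 DPA, 40 of them only higher, 21 only lower and 2 in both directions. Over all probes the share called at least once was 39.5%, so the superfamily as a whole moved about as often as the rest of the array. In an F test over the 20 time points with a range of at least 0.58, 73 genes varied, where 48.2% of all probes did. Of the 56 members whose mean lay below the 25th percentile of all probes, 0 were called at any time. Dim probes were called less often over the whole array too, since leaving them out raised the share called at least once from 39.5% to 51.1%.

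At 1 DPA 13 genes were higher and 6 lower than at 0 DPA, where 4.95% and 4.97% of all probes were called in those directions. At 3 DPA 19 were higher and 13 lower (8.87% and 9.74% of probes). At 10 DPA the counts were 19 and 14 (11.7% and 9.67%), and at 24 DPA 16 and 15 (12.9% and 9.3%). The median difference of all 175 genes was 0.05, 0.03, 0.05 and 0.04 on the log2 scale at 1, 3, 10 and 24 DPA, beside -0.01, 0.01, 0.06 and 0.06 over all probes.

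**Figure D1:**
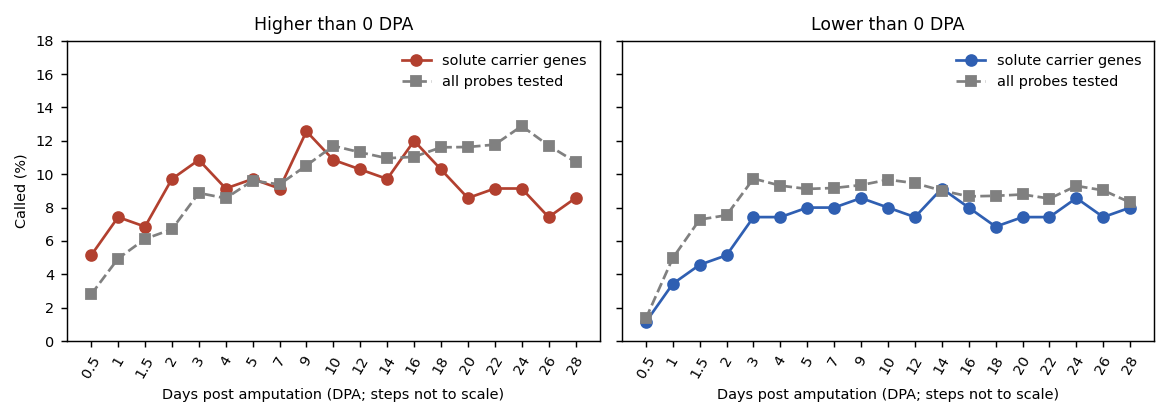
Share of genes called against 0 DPA (y axis, %) at each of the 19 later times (x axis, DPA), higher on the left and lower on the right, for the 175 solute carrier genes (solid) and all 20035 probes (dashed). The solute carrier line runs between 5.14% and 12.6% for higher calls and between 1.14% and 9.14% for lower calls, close to the line for all probes.

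**Figure D2:**
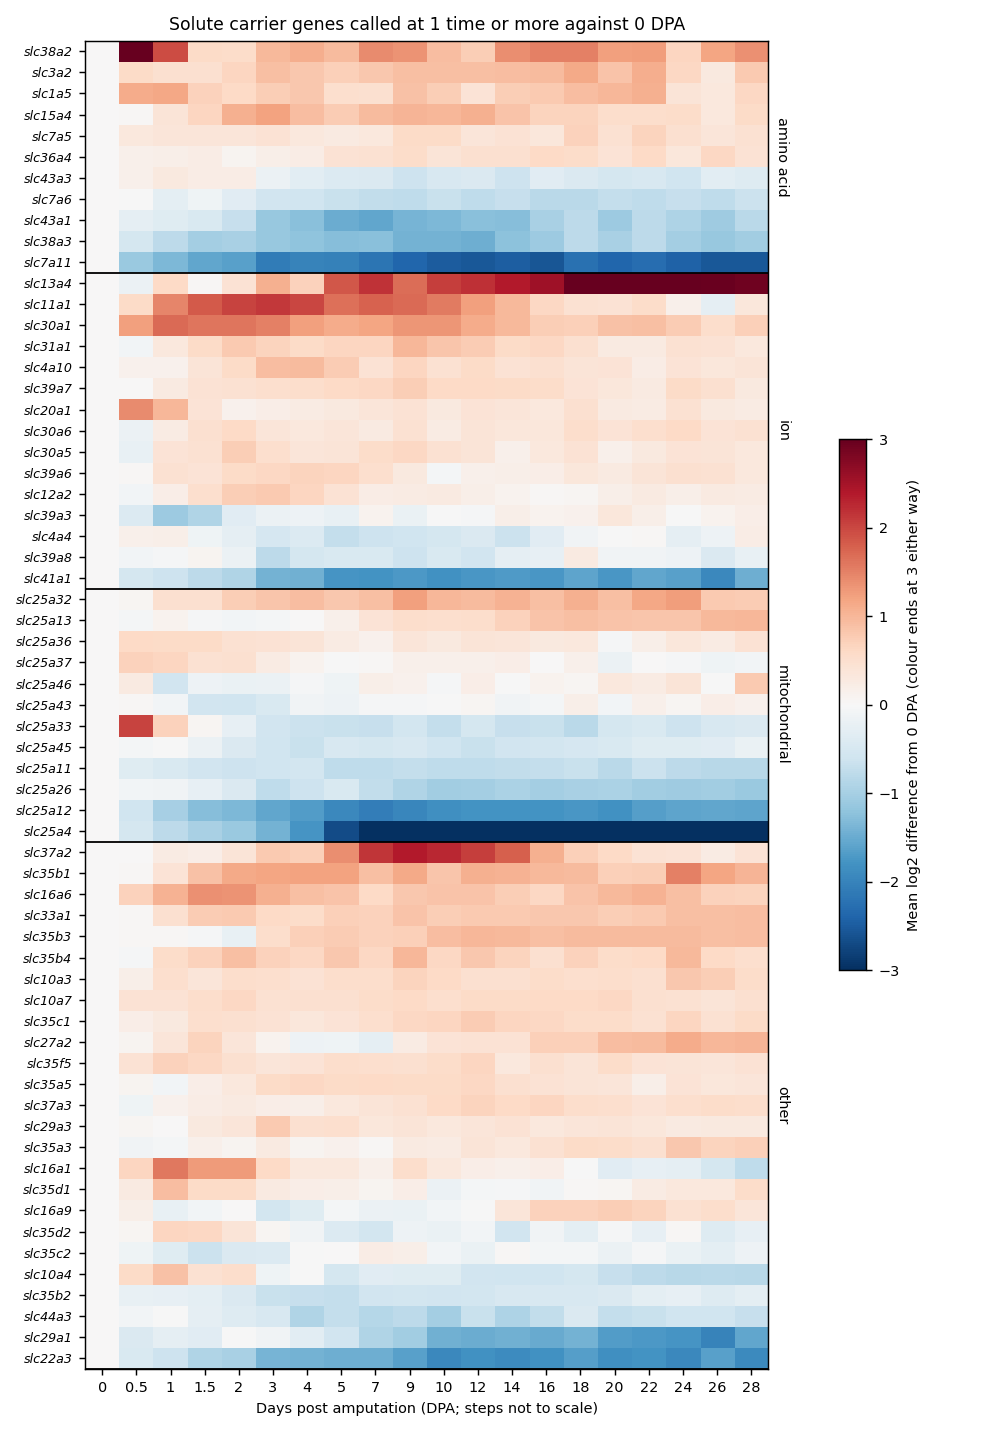
Mean log2 difference from 0 DPA (colour, red higher and blue lower, ending at 3 either way) for the 63 genes called at 1 time or more, in rows by substrate group and from highest to lowest mean difference within it, over the 20 time points in columns. *slc25a33* and *slc16a1*, red early and blue later, are the 2 genes called in both directions.

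Among the amino acid carriers, 11 of 34 genes were called at some time, 6 only higher and 5 only lower, beside 39.5% of all probes. Of the genes that rose, *slc38a2*, *slc1a5*, *slc7a5* and *slc36a4* carry neutral amino acids, *slc3a2* pairs with such carriers and *slc15a4* carries peptides and histidine, and those that fell include the cystine importer and the system N glutamine carrier. The widest excursion belonged to *slc38a2*, the sodium-coupled system A carrier of small neutral amino acids, which in mammalian cells is induced when amino acids run short. Its lowest, median and highest log2 signals were 10.36, 10.75 and 11.47 at 0.5 DPA, against 5.71, 7.73 and 9.22 at 0 DPA. All 10 arrays of 0.5 DPA lay above every array of 0 DPA. The difference was 3.07 (SE 0.31, n = 10 each, limma adjusted p = 3.129e-07), an 8.38-fold increase, and both sets showed it (2.62 for replicates 6 to 10, 3.51 for replicates 1 to 5). By 1 DPA the difference was 1.95, and at 2 DPA, with a mean of 8.38 against 7.84 at 0 DPA, the gene was not called. It was called again from 3 to 10 DPA and at most later times, in 15 comparisons in all, at lesser differences of 0.96 at 3 DPA and 0.93 at 10 DPA.

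The glutamine carrier gene *slc1a5* (ASCT2 in mammals) also rose early. At 1 DPA its arrays spanned 5.31 to 6.61 with a median of 5.73, against 4.08 to 5.58 with a median of 4.72 at 0 DPA, and only the edges of these ranges overlapped. The difference was 1.15 (SE 0.20, adjusted p = 0.0001558), and the gene was called in 14 comparisons. *slc3a2*, the heavy chain that carries several amino acid exchangers to the cell surface, moved later and more evenly. It was first called at 2 DPA and was higher by 0.89, 0.90 and 0.61 at 3, 10 and 24 DPA. One of its light chain partners, *slc7a5* (LAT1), was called higher at 9, 18 and 22 DPA, by 0.58 and 0.67 at 9 and 22 DPA. *slc36a4*, a carrier of neutral amino acids, was called higher at 16, 22 and 26 DPA, by 0.62 at 26 DPA. *slc15a4*, a lysosomal carrier of peptides and histidine found in immune cells of mammals, was higher by 1.20 at 3 DPA (SE 0.11, adjusted p = 1.507e-08), with 9.07 to 9.79 in the arrays of 3 DPA and 7.74 to 8.51 in those of 0 DPA. It was called from 1.5 to 18 DPA and at 28 DPA.

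*slc7a11*, which exchanges extracellular cystine for glutamate and so feeds glutathione synthesis, was lower in all 19 comparisons. The arrays of 10 DPA had a lowest, median and highest signal of 3.63, 4.04 and 4.41, against 5.96, 6.57 and 7.56 at 0 DPA. No array of 10 DPA reached the lowest array of 0 DPA, and the difference of -2.50 (SE 0.16, adjusted p = 7.002e-11) left 0.177 of the day 0 signal. The difference was -1.11 by 0.5 DPA, and the differences of 1, 3 and 24 DPA were -1.36, -2.10 and -2.42. *slc7a11* and *slc38a3* were among the 5 genes of the superfamily called lower in at least 18 of the 19 comparisons, beside 2.49% of all probes.

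*slc38a3*, the system N glutamine carrier, fell by 0.78, 1.13 and 1.43 at 1, 3 and 10 DPA, with signals of 4.79 to 5.42 at 10 DPA and 5.85 to 7.43 at 0 DPA. Its 2 dimmer probes differed by -0.23 and 0.06 at 10 DPA, so the fall rests on the brightest probe. *slc43a1* (LAT3), a facilitative carrier of branched-chain amino acids, lay at 8.52 to 9.03 at 10 DPA against 9.45 to 10.65 at 0 DPA, a difference of -1.34 (SE 0.13, adjusted p = 2.439e-08), and its second probe gave -0.96. *slc7a6*, a light chain of a cationic amino acid exchanger, was lower by 0.66 at 10 DPA and 0.69 at 24 DPA, with ranges that overlapped those of 0 DPA. *slc43a3*, which sorts here by family but carries nucleobases in mammals, was called lower at 9, 14 and 24 DPA. Its brighter probe differed by -0.59 at 24 DPA and its second, dimmer probe by -0.04, so the fall rests on the brighter probe. None of the 9 measured SLC6 genes, the sodium- and chloride-coupled carriers of amino acids, amines and creatine, was called at any time, and the range of their time-point means was at most 0.33. Except for *slc6a6* and *slc6a12*, their time-point means lay between 3.38 and 4.08, a dim signal in which a change could be missed.

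A list of 27 genes of the amino acid response and of serine synthesis, 15 of them measured, gave 2 higher and 1 lower at 0.5 DPA. At 3, 10 and 24 DPA 2, 7 and 5 of them were higher and 2 each time lower. Of all probes, 2.8% were called higher and 1.35% lower at 0.5 DPA. At 3, 10 and 24 DPA 8.87%, 11.7% and 12.9% of probes were higher and 9.74%, 9.67% and 9.3% lower. At 24 DPA the serine synthesis genes *psat1* (1.97), *psph* (1.46) and *phgdh* (1.37) were higher, while the mitochondrial folate enzyme *mthfd2* was lower (-2.03). At 0.5 DPA, when *slc38a2* peaked, the stress genes *ddit4* and *ddit3* were higher by 1.21 and 0.97, and *vldlr* was lower (-0.79).

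Of the 50 ion and metal carriers, 15 were called at some time, 11 only higher and 4 only lower, beside 39.5% of all probes. *slc30a1* (ZnT1), the zinc exporter of the cell surface, was called higher in every comparison with day 0 but that of 26 DPA (0.53). Its arrays had a lowest, median and highest signal of 10.52, 10.74 and 11.15 at 1 DPA, against 8.75, 9.04 and 9.48 at 0 DPA. The ranges were a full unit apart, and the difference was 1.70 (SE 0.11, adjusted p = 1.622e-10), a 3.25-fold increase. Its difference was 1.32 at 10 DPA and 0.76 at 24 DPA, where replicates 6 to 10 differed by 0.26 and replicates 1 to 5 by 1.26. *slc30a1* and *slc16a6* were the 2 genes of the superfamily called higher in at least 18 of 19 comparisons, beside 1.22% of all probes. Of the other 6 SLC30 genes, *slc30a5* and *slc30a6*, which load zinc into the secretory pathway, were called at 2 times each and were higher by 0.74 and 0.60 at 2 DPA.

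The SLC39 genes, which bring zinc into the cytosol, did not move together. *slc39a3* had 5.73 to 6.34 with a median of 5.90 at 1 DPA, against 6.28 to 7.51 with a median of 7.12 at 0 DPA, a difference of -1.09 (SE 0.13, adjusted p = 1.397e-06). Its drop was brief, called at 1 and 1.5 DPA only. *slc39a8*, a zinc and manganese importer, was lower by 0.78 at 3 DPA with wide, overlapping ranges. *slc39a7*, which releases zinc from the endoplasmic reticulum, and *slc39a6* were called higher, *slc39a7* at 6 times including 24 DPA (0.58). Its second probe was higher by 0.82 at 24 DPA. The copper importer *slc31a1* was higher at 8 times, by 0.84 at 10 DPA, with 10.23 to 11.18 at 10 DPA and 9.40 to 10.32 at 0 DPA.

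*slc11a1* (NRAMP1), which pumps iron and manganese out of phagosomes in mammalian macrophages, rose and declined. At 3 DPA its signals were 9.75, 10.15 and 10.90 (lowest, median, highest), against 7.71, 8.18 and 8.47 at 0 DPA. Every array of 3 DPA exceeded every array of 0 DPA by more than a unit, and the difference was 2.11 (SE 0.14, adjusted p = 1.92e-10). It was called from 1 to 16 DPA, and by 24 DPA the arrays ran from 6.64 to 9.08 and the gene was not called. Of 9 measured macrophage markers, 8 were also higher at 3 DPA and 8 at 10 DPA, and 1 was higher and 1 lower at 24 DPA. Their mean log2 level per array spanned 9.15 to 10.43 at 3 DPA and 7.37 to 8.24 at 0 DPA, and 7.27 to 8.25 at 24 DPA. RMA values do not reach 0 (the lowest deposited value was 2.59), so the absence of a marker cannot be read from them. The part of these cells in the rise of *slc11a1* was not tested.

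The largest late increase of the superfamily was that of *slc13a4*, a sodium-coupled sulfate carrier. Its mean signal at 0, 3, 10, 22 and 28 DPA was 5.16, 6.23, 7.23, 8.67 and 8.08. At 24 DPA its arrays had 7.66, 8.52 and 9.25 (lowest, median, highest), against 4.37, 4.89 and 6.55 at 0 DPA, and no values overlapped. The difference of 3.28 (SE 0.28, adjusted p = 3.774e-09) was a 9.71-fold increase, with 2.78 for replicates 6 to 10 and 3.79 for replicates 1 to 5. The 2 other SLC13 genes were never called, at dim time-point means of 3.24 to 3.94. All 22 measured markers of cell division and 10 of 14 epidermal markers were also higher at 24 DPA. Their mean level per array spanned 9.64 to 9.98 and 10.13 to 10.48 at 24 DPA, against 7.56 to 9.26 and 9.07 to 9.53 at 0 DPA. Of 14 measured cartilage markers, 3 were higher and 2 lower at 24 DPA, where 12.9% and 9.3% of all probes were called in those directions. The mean levels at 0, 10 and 24 DPA were 8.31, 9.12 and 9.85 for cell division and 9.31, 10.39 and 10.30 for epidermis. For cartilage they were 6.79, 6.19 and 7.47. The part of dividing, epidermal or cartilage cells in the rise of *slc13a4* was not tested.

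*slc20a1* (PiT1), a sodium-coupled phosphate carrier, behaved in the opposite way in time. The arrays of 0.5 DPA spanned 12.70 to 13.12, against 11.07 to 12.14 at 0 DPA, a difference of 1.41 (SE 0.11, adjusted p = 8.658e-09). It was higher by 1.00 at 1 DPA and was not called later. *slc4a10*, a sodium and bicarbonate carrier, was higher by 0.93 at 3 DPA from a dim signal (median 3.77 at 0 DPA). *slc12a2*, the sodium, potassium and chloride cotransporter, was called higher at 2, 3 and 4 DPA, by 0.73 at 2 DPA, and *slc4a4*, a sodium bicarbonate cotransporter, lower at 4 times between 5 and 14 DPA. The magnesium carrier *slc41a1* was lower in 18 comparisons. It lay at 6.76 to 7.61 at 10 DPA against 8.74 to 9.42 at 0 DPA, a difference of -1.82 (SE 0.10, adjusted p = 9.968e-12), while its second, dimmer probe differed by 0.27 in the other direction. None of the 4 SLC9 sodium and proton exchangers and none of the 4 SLC17 genes was called. Except for *slc9a7* (5.11 to 5.49), their time-point means lay between 3.31 and 4.72, so a change could be missed.

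Among 32 measured subunits of cation pumps, 13, 14 and 6 were higher at 3, 10 and 24 DPA and 2, 3 and 3 lower. Of all probes, 8.87%, 11.7% and 12.9% were called higher at those times and 9.74%, 9.67% and 9.3% lower. The proton pump subunits *atp6v1b2* (1.98) and *tcirg1* (1.86) led at 10 DPA, and the calcium pump of fast muscle, *atp2a1*, was lower (-6.20). Of 18 measured genes of iron, zinc and copper handling, 3 were higher and 2 lower at 3 and at 10 DPA. These counts are too small to set apart from the shares over all probes. The heme oxygenase *hmox1* (3.98) and *steap1* (3.15) rose most at 3 DPA, and the copper chaperone *atox1* was lower (-0.90). The 15 measured ABC transporters gave 2 higher and 3 lower at 3 DPA, again too few to set apart from the shares over all probes. Among them were *abca1* at 1.31 and *abcc1* at -1.13.

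**Figure D3:**
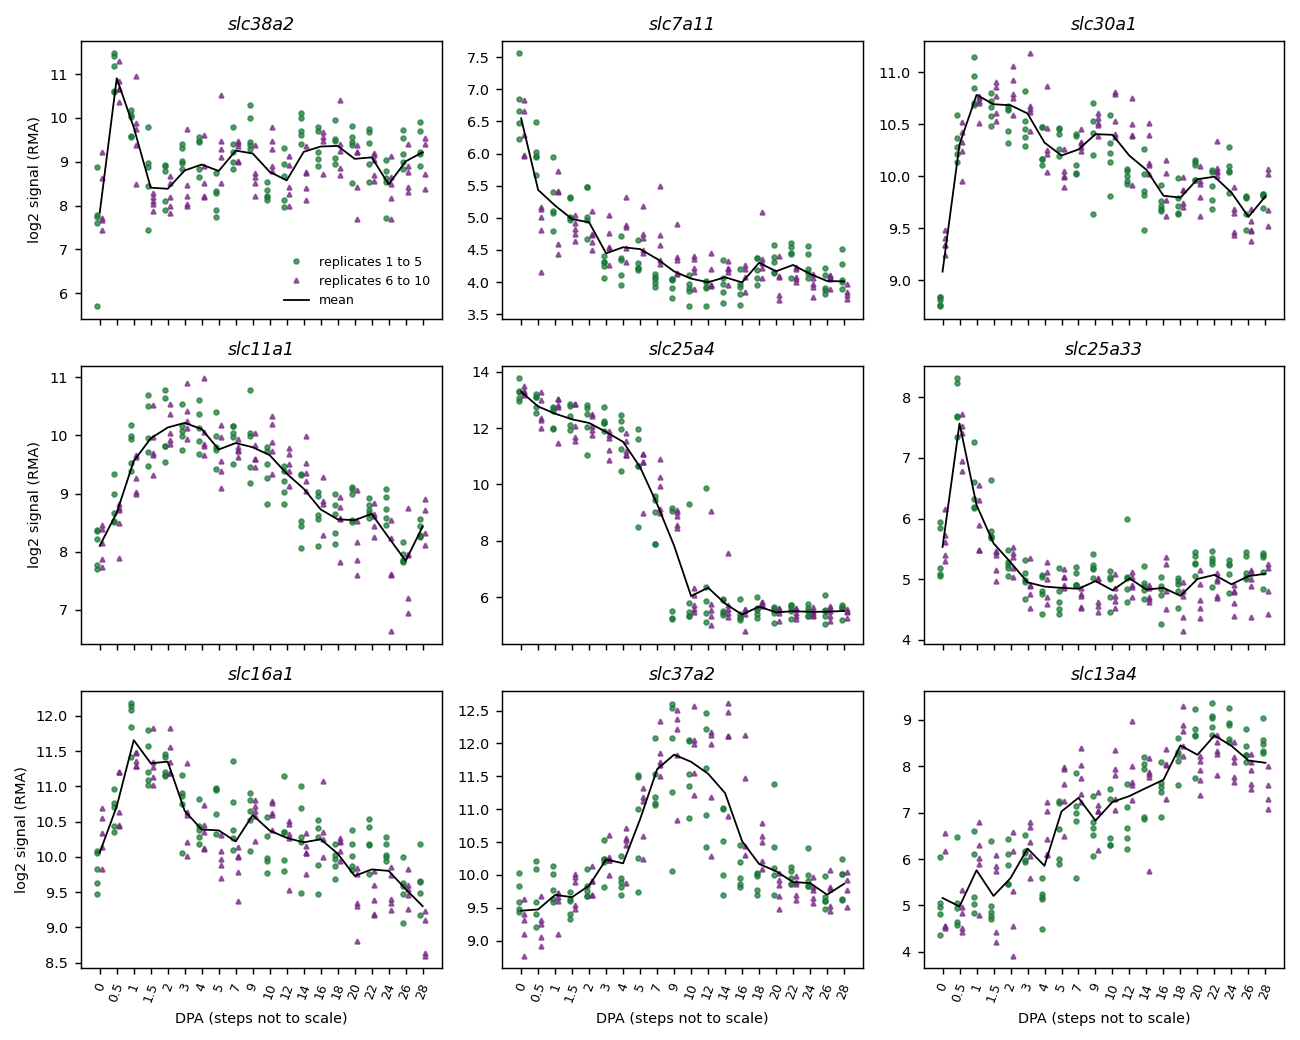
log2 signal (y axis) of 9 genes on every array over the 20 time points (x axis, DPA, steps not to scale), with replicates 1 to 5 as green circles, replicates 6 to 10 as purple triangles and the mean as a line. The means of *slc38a2* and *slc25a33* peak at 0.5 DPA, those of *slc16a1* and *slc30a1* at 1 DPA, and those of *slc11a1*, *slc37a2* and *slc13a4* at 3, 9 and 22 DPA, while *slc7a11* and *slc25a4* are highest at 0 DPA.

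Among the mitochondrial carriers, 12 of the 29 genes were called, beside 39.5% of all probes. Of the 12 genes, 5 were called only higher, 6 only lower and *slc25a33* in both directions. The most changed gene of the whole superfamily was *slc25a4* (ANT1), the exchanger of ADP and ATP that is the heart and skeletal muscle isoform in mammals. Its mean at 0, 1, 3, 7, 9, 10 and 16 DPA was 13.29, 12.51, 11.86, 9.30, 7.83, 6.04 and 5.39, after which it stayed between 5.47 and 5.67. At 24 DPA the arrays had 5.32, 5.47 and 5.75 (lowest, median, highest), against 12.94, 13.27 and 13.76 at 0 DPA. The difference was -7.80 (SE 0.09, adjusted p = 1.523e-25), or 0.00449 of the day 0 signal.

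The replicates of *slc25a4* were furthest apart while it was falling, with SDs of 1.74, 1.19 and 1.70 at 9, 10 and 12 DPA, against 0.23 at 0 DPA. Of 26 measured skeletal muscle markers, 25 were lower at 10 and at 24 DPA, with medians of -6.27 and -8.57, and the mean marker level per array spanned 4.62 to 9.33 at 10 DPA and 4.63 to 4.79 at 24 DPA, against 12.17 to 12.66 at 0 DPA. The array of 10 DPA with the highest *slc25a4* signal (9.29) also had the highest marker level of that time (9.33, where the median was 6.35), and the corresponding arrays of 9 and 12 DPA had the 2nd highest (9.49 and 9.52, where the highest were 9.69 and 9.54). The part of muscle in the fall of *slc25a4* was not tested.

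The aspartate and glutamate carriers *slc25a12* (aralar) and *slc25a13* (citrin), close relatives that serve the malate-aspartate shuttle, moved in opposite directions. *slc25a12*, the form of muscle and brain in mammals, was lower in all 19 comparisons, first by 0.60 at 0.5 DPA and most around 7 DPA, where its mean was 9.48 against 11.55 at 0 DPA. At 10 DPA the arrays spanned 9.30 to 10.23, against 11.28 to 11.80 at 0 DPA, a difference of -1.83 (SE 0.11, adjusted p = 1.856e-11). *slc25a13* was not called before 14 DPA and was higher at all 8 times from then on. At 24 DPA its arrays lay at 9.37 to 9.97, against 8.57 to 9.26 at 0 DPA, a difference of 0.84 (SE 0.10, adjusted p = 6.241e-07), and at 28 DPA the difference was 0.99.

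*slc25a33*, which carries pyrimidine nucleotides into mitochondria, rose most of the family at 0.5 DPA. At 0.5 DPA it had 6.79, 7.61 and 8.31 (lowest, median, highest), against 5.06, 5.50 and 6.16 at 0 DPA, with no overlap. The difference was 2.04 (SE 0.18, adjusted p = 5.672e-08). It was 0.69 at 1 DPA, and at 9 of the 17 later times the gene was called below day 0, with the lowest mean, 4.73, at 18 DPA. The related pyrimidine nucleotide carrier *slc25a36* and the iron importer *slc25a37* (mitoferrin) were likewise called higher only at 0.5 and 1 DPA, *slc25a36* by 0.58 and *slc25a37* by 0.64 at 1 DPA, with overlapping ranges. The second probe of *slc25a36* differed by -0.04 at 1 DPA, and that of *slc25a33* by 0.11. These second probes were not compared at 0.5 DPA, where both genes had their highest mean. The paper lists both probes of *slc25a33* among those that changed in its first interval after amputation.

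The lasting increase in the family was that of *slc25a32*, the folate and FAD carrier, in 16 comparisons from 2 DPA on. It had 5.09 to 5.95 at 10 DPA and 4.15 to 4.74 at 0 DPA, a difference of 0.99 (SE 0.12, adjusted p = 5.4e-07), and 1.26 at 24 DPA. *slc25a26*, which imports S-adenosylmethionine, was lower in 14 comparisons, by 1.05 at 10 DPA, with 6.40 to 7.21 against 7.37 to 9.01 at 0 DPA. *slc25a11*, the oxoglutarate and malate carrier, was lower by 0.77 at 10 DPA and 0.78 at 24 DPA. *slc25a45* was lower at 4 times (by 0.61 at 3 DPA), *slc25a43* at 2 DPA only, and *slc25a46*, a protein of the outer membrane, was higher at 28 DPA only (0.78).

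**Figure D4:**
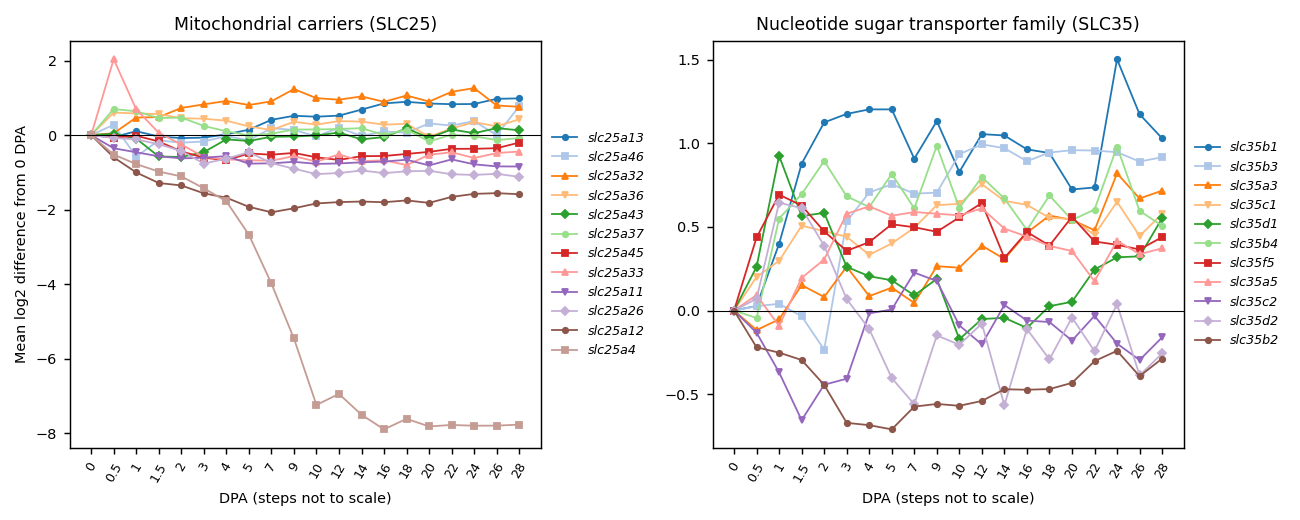
Mean log2 difference from 0 DPA (y axis, with a different scale in each panel) over the 20 time points (x axis, DPA, steps not to scale) for the 12 called SLC25 genes on the left and the 11 called SLC35 genes on the right. *slc25a4* ends at -7.80 by 24 DPA while the other mitochondrial carriers stay far closer to day 0, and most SLC35 lines lie above 0, with *slc35b1* reaching 1.50 at 24 DPA and *slc35b2* below 0 throughout.

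Of the 60 carriers of other solutes, 25 were called, beside 39.5% of all probes. Of the 25 genes, 18 were called only higher, 6 only lower and *slc16a1* in both directions. The SLC35 nucleotide sugar transporters gave 11 of the 25, since 11 of the 17 measured were called, 9 higher and 2 lower. The highest was *slc35b1*, a carrier of the endoplasmic reticulum that exchanges ATP and ADP in human cells. Its arrays had 7.63, 8.37 and 8.83 (lowest, median, highest) at 24 DPA, against 6.50, 6.81 and 7.31 at 0 DPA, a difference of 1.50 (SE 0.12, adjusted p = 1.477e-09). It was called in 17 comparisons and was higher by 1.18 at 3 DPA and 0.83 at 10 DPA.

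The 2 carriers of PAPS, the activated sulfate used to sulfate glycans in the Golgi, parted. *slc35b3* was called higher in 14 comparisons, by 0.94 at 10 DPA and 0.95 at 24 DPA, and its arrays at 10 DPA (6.40 to 6.99) all lay above those of 0 DPA (4.55 to 6.27). Its second probe differed by 0.53 at 10 DPA. *slc35b2* was called lower at 3, 4 and 5 DPA, by 0.67 at 3 DPA. *slc35b4*, a carrier of UDP-xylose and UDP-N-acetylglucosamine, was called higher at 14 times, by 0.98 at 24 DPA. *slc35c1*, the GDP-fucose carrier, was called at 6 times, by 0.75 at 12 DPA, and *slc35a3*, which carries UDP-N-acetylglucosamine, was higher at 24, 26 and 28 DPA.

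*slc35d1*, a carrier of UDP-glucuronic acid and UDP-N-acetylgalactosamine needed for cartilage proteoglycans in mice, was an early exception. It had 7.87 to 8.67 at 1 DPA and 7.12 to 7.75 at 0 DPA, a difference of 0.93 (SE 0.11, adjusted p = 1.042e-06), but -0.17 at 10 DPA, where it was not called. *slc35d2* and *slc35f5* were also called higher at 1 DPA, *slc35f5* by 0.69.

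The monocarboxylate carriers *slc16a1* and *slc16a6* rose in the first day. *slc16a1* (MCT1) moves lactate and pyruvate, and its arrays had 11.28, 11.48 and 12.18 (lowest, median, highest) at 1 DPA, against 9.47, 10.07 and 10.70 at 0 DPA. The groups did not overlap, and the difference was 1.59 (SE 0.16, adjusted p = 1.902e-07). It was called from 0.5 to 3 DPA and was lower than day 0 at 28 DPA (-0.76). The second, dimmer probe of *slc16a1* differed by -0.12 at 1 DPA and 0.75 at 24 DPA, so its probes disagree. *slc16a6*, which exports ketone bodies from zebrafish liver cells, was called higher in all 19 comparisons, by 1.04 at 1 DPA and 0.86 at 10 DPA, and its 3 other probes were higher too (0.30 to 0.74 at 1 DPA).

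*slc37a2*, a sugar phosphate carrier that mouse macrophages and osteoclasts express strongly, formed a wave in the middle of the course. The means of 0, 3, 9, 14 and 24 DPA were 9.46, 10.23, 11.83, 11.24 and 9.88. At 10 DPA the arrays had 10.87, 11.77 and 12.57 (lowest, median, highest), against 8.77, 9.46 and 10.02 at 0 DPA, a difference of 2.27 (SE 0.18, adjusted p = 2.503e-09). It was called from 3 to 20 DPA. Of 7 measured osteoclast markers, 4 were higher at 10 DPA, and at 24 DPA *acp5* was higher (0.88) and *ctsk* lower (-3.54). Their mean level per array spanned 7.55 to 8.68 at 10 DPA, against 6.30 to 7.13 at 0 DPA. The part of osteoclasts or macrophages in the wave of *slc37a2* was not tested.

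Late increases included *slc27a2*, a fatty acid carrier and acyl-CoA synthetase. It lay at 9.26 to 10.07 at 24 DPA and 7.99 to 8.93 at 0 DPA, a difference of 1.12 (SE 0.13, adjusted p = 2.452e-07), and its second probe gave 1.15. *slc33a1*, the acetyl-CoA carrier of the endoplasmic reticulum, was called higher in 16 comparisons, with its highest mean, 9.92, at 28 DPA against 8.98 at 0 DPA. *slc29a3*, a lysosomal nucleoside carrier, was higher at 3 DPA only, by 0.79.

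*slc22a3* (OCT3), which takes up organic cations and monoamines, was lower in 17 comparisons. It had 3.96, 4.15 and 4.83 (lowest, median, highest) at 10 DPA, against 5.65, 6.16 and 6.90 at 0 DPA, a difference of -1.94 (SE 0.17, adjusted p = 7.026e-09). *slc29a1* (ENT1), a nucleoside carrier, was lower in 13 comparisons from 5 DPA on. Its signals at 24 DPA, 5.93 to 7.65, lay below those of 0 DPA, 8.02 to 9.01, with a difference of -1.76 (SE 0.21, adjusted p = 3.882e-07). The choline-like carrier *slc44a3* was lower by 1.01 at 10 DPA and 0.60 at 24 DPA, and the vesicular carrier *slc10a4* by 0.83 at 24 DPA.

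Adjacent times were compared at all 19 intervals, and genes were called at 5 of them. At 0.5 against 0 DPA 9 genes were higher and 2 lower, where 2.8% and 1.35% of probes were called. The 9 were *slc38a2*, *slc25a33*, *slc20a1*, *slc30a1*, *slc1a5*, *slc25a37*, *slc16a6*, *slc16a1* and *slc25a36*, and the 2 were *slc7a11* and *slc25a12*. This was the interval with the most calls of the 19. The labels of 2 arrays of 0.5 DPA conflict, and without these arrays 7 genes were higher and 4 lower. The calls of *slc25a37* (0.54), *slc25a36* (0.56) and *slc16a6* (0.65, adjusted p = 0.07685) then ended, and *slc11a1* was called higher (0.63) and *slc25a4* and *slc41a1* lower (-0.58 each).

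At 1 against 0.5 DPA 4 genes were higher and 3 lower, beside 1.27% and 0.784% of probes. *slc16a1* (0.94), *slc11a1* (0.89), *slc35d1* (0.66) and *slc35b4* (0.60) were higher, and *slc25a33* (-1.34), *slc38a2* (-1.12) and *slc39a3* (-0.68) were lower. Replicates 6 to 10 alone gave 0 calls at this interval and replicates 1 to 5 alone gave 7 (2.71% of probes). The share of all probes called in replicates 6 to 10 alone is not given here, so these counts are not compared. Without the arrays of conflicting labels the call of *slc35b4* ended (0.578, just under the fold threshold). At 1.5 against 1 DPA only *slc38a2* was called, lower by 1.38, beside 0.275% of probes higher and 0.739% lower. Replicates 6 to 10 alone gave 0 calls there too, again with the share of all probes in that set not given here. At 3 against 2 DPA 1 gene was higher and 2 were lower (1.64% and 0.913% of probes). This step crosses letter series in both sets, so the series and the time cannot be told apart. *slc35b3* was higher by 0.77, and *slc16a1* and *slc10a4* were lower by 0.70 and 0.66.

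At 10 against 9 DPA 0 genes were called (0.00998% of probes in either direction), and at 20 against 18 DPA 0 were called (0.369% in either direction). At the 12 intervals not described here singly, 0 genes were called by limma, beside 0.0216% of probes over these intervals, and 7 to 21 genes an interval differed at an unadjusted p under 0.05. At that unadjusted p 17 and 19 genes differed at 10 against 9 and 20 against 18 DPA, and the methods' t-test with Benjamini-Hochberg adjustment over all probes also called 0 at both. Replicates 6 to 10 alone gave 3 and 6 calls there. The share of all probes called in that set alone is not given here, so these counts are not read as a trait of the solute carriers. The letter series change in 1 set from 9 to 10 DPA and in both sets from 18 to 20 DPA. Where they change, the series and the time cannot be told apart. At 24 against 22 DPA 1 gene was higher and 1 lower, with 0.205% and 0.11% of probes. *slc35b1* had 7.63, 8.37 and 8.83 (lowest, median, highest) at 24 DPA, against 7.05, 7.70 and 7.96 at 22 DPA, a difference of 0.77 (adjusted p = 0.006524). *slc1a5* had 4.77, 5.12 and 5.32 at 24 DPA, against 5.29, 5.57 and 6.89 at 22 DPA, a difference of -0.67 (adjusted p = 0.02897). In either set of 5 replicates alone, neither call passed.

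Each difference from day 0 was also compared between replicates 6 to 10 and replicates 1 to 5, as an interaction of set and time, called at an adjusted p under 0.05 with no minimum size. At 1 DPA 1 gene differed between the sets (0.02% of probes). At 3 DPA 12 genes did, beside 9.91% of probes, at 10 DPA 12 beside 8.63%, and at 24 DPA 9 beside 2.76%. In 24 of these 34 cases the differences of both sets had the same sign, and in 10 they had opposite signs. Such opposite signs were found for 5 genes at 3 DPA, where 7 genes had the same sign. The gene at 1 DPA was *slc30a1*, higher by 1.33 in replicates 6 to 10 and by 2.07 in replicates 1 to 5. Its sets already stood apart at 0 DPA, where replicates 6 to 10 averaged 9.36 and replicates 1 to 5 averaged 8.80.

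A similar gap was seen for *slc16a6*, which averaged 9.87 in replicates 6 to 10 and 8.88 in replicates 1 to 5 at 0 DPA, while at 10 DPA replicates 6 to 10 averaged 10.24 and replicates 1 to 5 averaged 10.23. *slc25a24*, the carrier of ATP-magnesium and phosphate, chosen here after its values were seen, gave the 1 case with opposite signs in which both sets differed from day 0 by at least 0.58. At 3 DPA it was lower by 0.99 in replicates 6 to 10 and higher by 1.79 in replicates 1 to 5 (interaction -2.78, adjusted p = 0.0009117), and over all 10 replicates it was not called. The comparisons of 3 DPA cross letter series, so the source of these set differences was not tested.

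**Figure D5:**
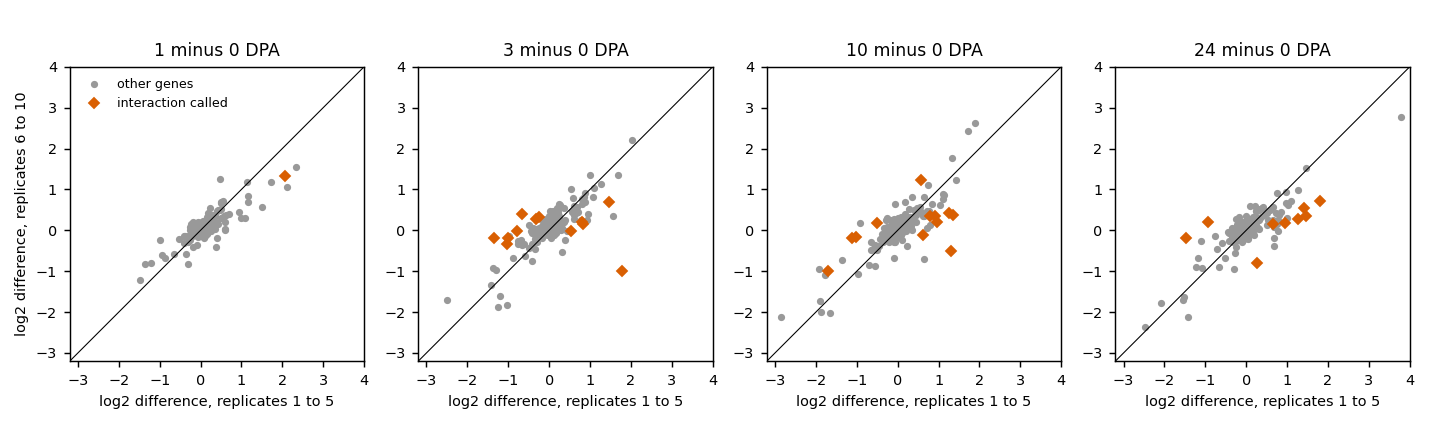
log2 difference from 0 DPA in replicates 6 to 10 (y axis) against replicates 1 to 5 (x axis) for the solute carrier genes at 1, 3, 10 and 24 DPA, with genes whose interaction was called as orange diamonds and the line of equal differences. *slc25a4* lies outside the panels at 10 and 24 DPA, most genes lie near the line, and 1, 12, 12 and 9 genes are marked in the 4 panels.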

How the data were processed

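The authors hybridised RNA of each limb tip to 1 Affymetrix axolotl array and deposited log2 signals summarised by RMA in Affymetrix Expression Console, with versions not given in the sources used here. RMA corrects background and gives all arrays 1 distribution, so array medians ran only from 5.70 to 5.91, and precision is set by the number of arrays and by signal above the floor. The 45 control probes were left out of 20080. Gene symbols came from GEO's platform annotation, where 10951 of the 20035 probes tested had 1 symbol and 9084 none. All 175 symbols were found in the RefSeq gene table.

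Each pair of times was tested, two-sided, on its own arrays by lmFit and eBayes (limma 3.58.1, R 4.3.3). Summaries used Python 3.11.15. Simulated data for 3 against 0 DPA covered 20035 probes and had no sets of replicates or letter series. Changes of 0.8, 1, 1.5 and 2 on the log2 scale were recovered there in 90%, 88%, 96% and 98% of cases. The study describes the samples of a time as biological replicates, and which animal each array came from is not given in the sources used here.

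Genes were named by rule: in each substrate group, up to 4 of the largest increases and decreases at 1, 3, 10 and 24 DPA with 1 sign in both sets of replicates, up to 3 each way for 5 adjacent intervals, genes called 1 way in at least 18 of 19 comparisons, and the 4 widest ranges. Other called genes were added with their counts of calls. Members and lists were chosen with earlier results of these data known. By the median, same-numbered replicates deviated together no more than other replicates of their set (median correlations between -0.05 and 0.14), so the numbers were not used as pairs. At 1 against 0 DPA the median was 0.14 for the same number, 0.18 within a set and -0.15 between sets. There 4 of 10 arrays correlated best with their own number. The genes of 1 against 0.5 and 1.5 against 1 DPA were named after their values were seen. Alternatives were other tests, thresholds, filters, scalings, blocks, each set alone and the mean of a gene's probes.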

Additional observations from a re-analysis of the deposited data

Results flagged for a closer look

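In 149 groups of 10 arrays of a named gene, 13 had a lowest or highest value apart from the rest by Dixon's ratio, where chance flags about 1 in 20. The highest array stood apart for *slc1a5* at 3 DPA (7.56, next 5.64), *slc25a12* at 3 DPA (10.99), *slc25a32* at 3 DPA (6.04), *slc25a36* at 1 DPA (8.10), *slc25a4* at 10 DPA (9.29), *slc25a45* at 3 DPA (5.20), *slc35b1* at 0 DPA (7.31), *slc35b3* at 3 DPA (6.87) and *slc4a10* at 0 DPA (4.20). The lowest array stood apart for *slc25a11* at 24 DPA (4.47), *slc35b3* at 0 DPA (4.55), *slc38a2* at 0 DPA (5.71, next 7.43) and *slc44a3* at 10 DPA (4.91).

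Among the named genes at the times for which they were named, and for *slc25a24*, the change from day 0 differed between the sets of replicates in 15 cases, given here as the difference in replicates 6 to 10 minus that in replicates 1 to 5. At 1 DPA it was -0.74 for *slc30a1*. At 3 DPA it was -0.77 for *slc16a6*, 1.17 for *slc25a26*, 0.82 for *slc25a45*, 0.69 for *slc35b2* and -2.78 for *slc25a24*. At 10 DPA it was -0.99 for *slc16a6*, -0.82 for *slc31a1*, 0.64 for *slc3a2*, 0.70 for *slc43a1* and 0.93 for *slc7a6*. At 24 DPA it was 1.27 for *slc10a4*, -1.10 for *slc25a32*, -0.99 for *slc30a1* and -0.88 for *slc35b4*. In all 15 but *slc25a24* the differences of both sets had the same sign, because genes were named only if they did. *slc25a24* was added for its opposite signs, so these cases do not show how often the sets agree. Over all 175 genes, 10 of 34 called interactions had opposite signs.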

How the results depend on the processing

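The counts of called genes moved with the fold threshold and with the replicates used. With no threshold, 42, 72, 76 and 75 genes were called at 1, 3, 10 and 24 against 0 DPA (21.6%, 41.8%, 47.5% and 47.3% of probes). There were 22 at 0.5 against 0 DPA (9.27%), 16 at 1 against 0.5 DPA (4.4%) and 5 at 1.5 against 1 DPA (2.91%). At 3 against 2 DPA there were 14 (8.69%), at 20 against 18 DPA 1 (0.948%) and at 24 against 22 DPA 4 (1.62%). At any time 131 were called (78.6%), and 120 over the course (75.8%). With 2-fold the counts at 1, 3, 10 and 24 against 0 DPA were 9, 13, 14 and 12 (4.27%, 7.6%, 10.1% and 9.82% of probes). There were 6 at 0.5 against 0 DPA (1.78%) and 2 at 1 against 0.5 DPA (0.499%). At 3 against 2 DPA there were 0 (0.444%), and at 24 against 22 DPA 0 (0.0699%). At any time 27 were called (18.6%), and 35 over the course (24.4%). Replicates 6 to 10 alone gave 11 at 1 DPA, 7 at 0.5 DPA, 0 at 1 against 0.5 and at 1.5 against 1 DPA, 1 at 3 against 2 DPA, 3 at 10 against 9 DPA, 6 at 20 against 18 DPA and 0 at 24 against 22 DPA. The shares of all probes called in that set alone are not given here. Replicates 1 to 5 alone gave 8 at 3 against 2 DPA (7.32% of probes) and 0 at 24 against 22 DPA (0.354%). Genes averaged over their probes gave 1 at 3 against 2 DPA, with the share over the whole array not given here. In 1 fit of all arrays there was 1 at 10 against 9 DPA (0.309% of probes) and 1 at 24 against 22 DPA (0.299%). The methods' t-test with Benjamini-Hochberg gave 1 at 24 against 22 DPA (0.225%). At 1.5 against 1 DPA, 1 fit of all arrays, a second quantile normalization, the set as a block and replicates 1 to 5 alone each gave 2 in place of 1. The shares of probes were 1.31%, 1.01%, 1.29% and 2.08% in that order. The alternatives of 1 against 0.5 and 1.5 against 1 DPA were chosen after seeing the data. The cause of these shifts was not tested.

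With the replicate number as a block the counts were 19, 32, 33 and 31 at 1, 3, 10 and 24 DPA, as without it, and no named difference lost its call. Of 101 named differences, 45 stayed called in every alternative, and 0 of 1318 alternative values changed sign. The naming rule required 1 sign in both sets, so either set alone could not reverse a sign. Other tests, thresholds and the dim probe filter leave the difference of means as it is, so they could not reverse it either. The 2-fold threshold lost 49, replicates 6 to 10 alone lost 29 and replicates 1 to 5 alone lost 11, the sets having 5 arrays or fewer a time. Without the 2 arrays of 0.5 DPA whose labels conflict, 7 genes were higher and 4 lower at 0.5 DPA, in place of 9 and 2. Leaving out dim probes left 119 genes, of which 63 were called at any time, beside 51.1% of probes.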
